A study of Mus musculus with 4 samples.

Results

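Fn1, Tnc, Thbs1, Postn, Sparc, Dcn, Lum, Dpt, Fbn1 and Eln encode glycoproteins and proteoglycans of the dermal matrix, the material between the cells of the dermis. These 10 genes were taken by name as a list of non-collagen dermal matrix genes and each was found by its GENCODE symbol among the 22524 genes counted. RNA was sequenced from mouse skin with pre-tumorigenic dermal hyperplasia, from which cells positive for the red protein tdTomato had been sorted, in 4 libraries, 2 labelled Ezh2Y646N and 2 labelled NrasQ61K. All mice carried Tyr::NrasQ61K, an oncogenic Ras under the melanocyte promoter of tyrosinase, Tyr::CreERT2, a tamoxifen-dependent recombinase under the same promoter, and the reporter R26R-LSL-tdTomato. Tamoxifen had been given to all of them. The group labelled Ezh2Y646N also carried ColA1-LSL-Ezh2Y646N, a mutant of the Polycomb methyltransferase Ezh2 that the recombinase switches on. The labels give neither the age of the mice nor whether the libraries of a group came from separate animals, so p-values measure only the spread between these libraries, which may be technical. The comparison asks how matrix gene expression differed when mutant Ezh2 was added to NrasQ61K.

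Dermal matrix is made chiefly by fibroblasts, which secrete collagen fibrils and the proteins that coat, space and link them. Fibronectin and the tenascins, thrombospondins and periostin bind cells through integrins and change during wound repair and around tumours. Decorin and lumican, small proteoglycans, regulate the width and spacing of collagen fibrils, and fibrillin microfibrils carry elastin into elastic fibres. Melanocytic and epidermal cells can make some of these proteins too, so their RNA is not a mark of 1 cell type.

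Total counts were 14808801 to 20600297 per library. The sorted population expressed the melanocyte genes, with Dct at 1486 to 2757 CPM and Tyr at 172 to 260 CPM over the 4 libraries, where CPM is the read count scaled to library size (TMM-adjusted CPM). The summed level of 9 melanocyte markers was 3857 and 3963 CPM in the Ezh2Y646N libraries and 2639 and 3447 CPM in the NrasQ61K libraries. Markers of other cell types were present as well, and no gene of any marker list was at 0 in any library. Basal keratinocyte markers summed to 13362 and 20615 CPM in the Ezh2Y646N libraries and 10123 and 23950 CPM in the NrasQ61K libraries. Suprabasal keratinocyte markers summed to 41775 and 29565 CPM in the Ezh2Y646N libraries and 3409 and 8855 CPM in the NrasQ61K libraries. Each of these sums was above the melanocyte sum of the same library. Ezh2 RNA was at 135 and 91.6 CPM in the Ezh2Y646N libraries and 171 and 75.1 CPM in the NrasQ61K libraries, and counts per gene cannot separate mutant from endogenous Ezh2 RNA.

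Fibronectin, tenascin C and dermatopontin RNA were lower in the Ezh2Y646N libraries, and periostin was the single matrix gene of the 10 with a fold change above 0. Of the 10 genes, all tested, 3 fell at an adjusted p under 0.05 in edgeR's quasi-likelihood test and 0 rose (0 in DESeq2, and 0 at an unadjusted p under 0.05), where 0.673% of all 14265 genes tested fell and 1.10% rose. The fold change was below 0 in 9 of 10, with a median of -1.29 on the log2 scale against -0.04 over all genes tested. An unadjusted p under 0.05 with a lower level was found for 7 of 10, where 7.02% of all genes had one. Both Ezh2Y646N libraries lay below both NrasQ61K libraries for 8 of 10 genes, against 23.1% of all genes. The count of genes that fell rested on single libraries. It was 0 without Ezh2Y646N replicate 1, 1 (Tnc) without Ezh2Y646N replicate 2, and 5 without NrasQ61K replicate 2.

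**Figure D1:**
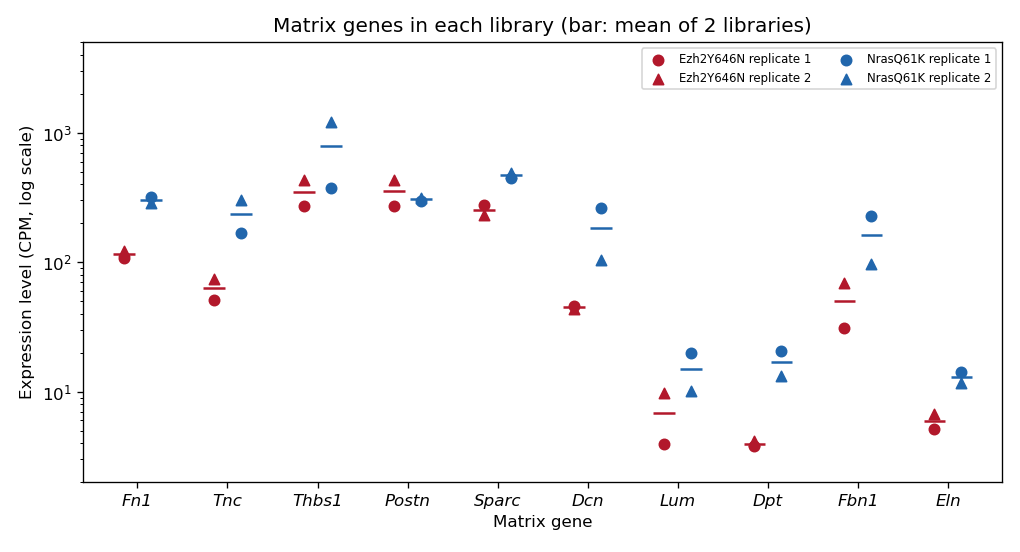
Expression level of each matrix gene in CPM on a log axis, with Ezh2Y646N libraries in red and NrasQ61K libraries in blue, circles for replicate 1 and triangles for replicate 2, and a bar at the mean of each group. The red points lie below the blue for 8 of the 10 genes, though barely for Lum (9.81 against 10.1 CPM in replicate 2). The groups overlap for Thbs1 and Postn.

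RefSeq start windows on GRCm38.p6, from 250 bases before the start to 50 bases after it, were at hand for 5 of the 10 genes. They are shown for 2 genes that fell, Tnc and Dpt, and for Postn, which did not, so that the sequence at their starts can be read beside their RNA levels. For Tnc and Postn, which have 2 listed starts each, the downstream one is given. Sequences run 5′ to 3′ along the gene's strand, and capitals mark each TATANA, a loose form of the TATA box, on that strand.
Tnc, minus strand, chr4:64046887-64047186: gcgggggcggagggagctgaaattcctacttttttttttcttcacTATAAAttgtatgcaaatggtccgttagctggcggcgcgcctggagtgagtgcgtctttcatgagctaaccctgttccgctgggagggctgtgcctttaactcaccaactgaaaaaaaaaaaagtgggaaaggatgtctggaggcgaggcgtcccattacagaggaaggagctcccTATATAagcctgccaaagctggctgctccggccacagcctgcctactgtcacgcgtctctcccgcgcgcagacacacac
Dpt, plus strand, chr1:164796413-164796712: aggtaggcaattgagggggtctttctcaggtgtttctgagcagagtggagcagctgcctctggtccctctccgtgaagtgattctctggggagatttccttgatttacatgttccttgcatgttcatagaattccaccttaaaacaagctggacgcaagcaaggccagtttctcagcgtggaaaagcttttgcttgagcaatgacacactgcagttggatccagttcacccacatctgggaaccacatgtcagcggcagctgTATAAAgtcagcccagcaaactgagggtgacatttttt
Postn, plus strand, chr3:54360857-54361156: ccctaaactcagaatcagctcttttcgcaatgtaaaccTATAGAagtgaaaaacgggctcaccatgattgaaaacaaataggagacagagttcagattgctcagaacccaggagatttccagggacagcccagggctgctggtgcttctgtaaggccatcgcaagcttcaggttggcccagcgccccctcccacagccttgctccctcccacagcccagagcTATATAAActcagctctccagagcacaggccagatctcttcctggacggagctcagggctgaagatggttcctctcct
TATANA began 29 bases before the start in Tnc, with another match 205 bases before it. In Postn overlapping matches began 28 and 26 bases before the start, and another 212 bases before it. In Dpt the match began 13 bases into the transcript as RefSeq places the start. The motif was chosen after these sequences had been read, and 18% of all 32851 RefSeq windows hold it on the gene's strand and 24.7% on either strand. The windows of Fbn1 and Sparc held no TATANA. A match is a description of the letters alone.

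Among the adhesive glycoproteins, Fn1 and Tnc fell, Sparc and Thbs1 had lower means without passing, and Postn did not follow them. Fn1 (ENSMUSG00000026193, GRCm38 chromosome 1, 71585520 to 71653200, minus strand) encodes fibronectin, a cell-binding protein of provisional and mature matrix. It was at 108 and 122 CPM in the Ezh2Y646N libraries and at 321 and 285 CPM in the NrasQ61K libraries. Replicates were close in both groups, and the lowest NrasQ61K library was 2.33 times the highest Ezh2Y646N library. Group means of 115 ± 10.2 and 303 ± 25.6 CPM (SD, n = 2 each) gave -1.40 as the log2 fold change, with a standard error (SE) of 0.22 and an adjusted p of 0.0343 in edgeR's test. The call was lost without Ezh2Y646N replicate 1 or replicate 2, though the log2 fold change stayed between -1.50 and -1.31 in every alternative run.

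Tnc (chromosome 4, 63959785 to 64047015, minus strand) encodes tenascin C, a large protein that modulates adhesion and appears in healing skin and tumour stroma. Its levels were 51.4 and 74.7 CPM in the Ezh2Y646N libraries and 168 and 301 CPM in the NrasQ61K libraries. The groups were well apart, and the NrasQ61K libraries differed 1.79-fold from each other. The log2 fold change was -1.90 (SE 0.34, adjusted p = 0.0424), and the call was lost without Ezh2Y646N replicate 1. Of the genes in the list, Tnc held its call in the most alternatives, 10 of 11, followed by Fn1 in 9 and Dpt in 7.

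Sparc (chromosome 11, 55394500 to 55423183, minus strand) encodes osteonectin, a collagen-binding glycoprotein that modulates cell-matrix contact. It was measured at 277 and 233 CPM in the Ezh2Y646N libraries and at 446 and 494 CPM in the NrasQ61K libraries. The groups did not overlap and the replicates were close, but the log2 fold change of -0.88 (SE 0.24) did not pass, with an adjusted p of 0.125. DESeq2 called it lower.

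Thbs1 (chromosome 2, 118111876 to 118127133, plus strand) encodes thrombospondin 1, an adhesive protein that activates latent TGF-beta and restrains vessel growth. It was at 269.9 and 431 CPM in the Ezh2Y646N libraries, 377 CPM in NrasQ61K replicate 1 and 1210.5 CPM in NrasQ61K replicate 2. A single library was high, and the groups overlapped. The log2 fold change was -1.18 (SE 0.52, adjusted p = 0.361), and without NrasQ61K replicate 2 it was -0.06. Without NrasQ61K replicate 1 it was -1.79 and was called.

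Postn (chromosome 3, 54361109 to 54391037, plus strand) encodes periostin, a glycoprotein that promotes collagen cross-linking and is made by fibroblasts in remodelling tissue. It was at 274 and 433 CPM in the Ezh2Y646N libraries and at 298 and 314 CPM in the NrasQ61K libraries. Both NrasQ61K values lay inside the range of the Ezh2Y646N values. With means of 354 ± 113 and 306 ± 11.4 CPM (SD, n = 2 each) its log2 fold change was 0.21 (SE 0.28, adjusted p = 0.833), and no alternative called the gene. The sign rested on 1 library, since without Ezh2Y646N replicate 2 the log2 fold change was -0.16.

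Of decorin, lumican and dermatopontin, which bind collagen fibrils, dermatopontin fell, and the other two had lower levels in both Ezh2Y646N libraries without passing. Dpt (chromosome 1, 164796644 to 164824266, plus strand) encodes dermatopontin, a small dermal protein that binds decorin and promotes fibril formation. It was at 3.79 and 4.14 CPM in the Ezh2Y646N libraries and at 20.5 and 13.1 CPM in the NrasQ61K libraries, from 60 to 325 counts. The lowest NrasQ61K library was 3.17 times the highest Ezh2Y646N library, more than for any other of the 10 genes. The log2 fold change was -2.08 (SE 0.37, adjusted p = 0.0418). The call was lost in limma voom and without Ezh2Y646N replicate 1, Ezh2Y646N replicate 2 or NrasQ61K replicate 1.

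Dcn (chromosome 10, 97479609 to 97518143, plus strand) encodes decorin, a proteoglycan with leucine-rich repeats that binds collagen and TGF-beta. It was at 46.2 and 43.7 CPM in the Ezh2Y646N libraries and at 261 and 103 CPM in the NrasQ61K libraries. The Ezh2Y646N libraries were nearly equal, while the NrasQ61K libraries differed 2.53-fold. The log2 fold change of -2.02 (SE 0.41) was close in size to that of Dpt but missed the threshold, with an adjusted p of 0.0589. DESeq2 called Dcn lower, as did edgeR with either NrasQ61K library left out, with log2 fold changes of -1.20 without replicate 1 and -2.50 without replicate 2.

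Lum (chromosome 10, 97565128 to 97572703, plus strand) encodes lumican, a related proteoglycan with leucine-rich repeats, and starts 46984 bases downstream of the end of Dcn on the same strand. It was at 3.91 and 9.81 CPM in the Ezh2Y646N libraries and at 19.8 and 10.1 CPM in the NrasQ61K libraries, from 68 to 313 counts. The groups barely separated, since Ezh2Y646N replicate 2 and NrasQ61K replicate 2 were almost equal. The log2 fold change was -1.13 (SE 0.52, adjusted p = 0.384), and it was -0.57 without NrasQ61K replicate 1 and -1.94 without Ezh2Y646N replicate 2.

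The elastic fibre genes Fbn1 and Eln were lower in both Ezh2Y646N libraries, and neither passed the threshold. Fbn1 (chromosome 2, 125300594 to 125507993, minus strand) encodes fibrillin 1, the main protein of microfibrils, which hold latent TGF-beta and guide elastin. It was at 31.1 and 69.1 CPM in the Ezh2Y646N libraries and at 227 and 97.2 CPM in the NrasQ61K libraries. Each group spread over 2-fold or more, by 2.22-fold and 2.33-fold. The log2 fold change was -1.69 (SE 0.48, adjusted p = 0.144), with -0.96 without NrasQ61K replicate 1 and -2.39 without Ezh2Y646N replicate 2. DESeq2 called it lower, as did edgeR without NrasQ61K replicate 2 (-2.14). The antisense gene Gm9913 overlaps 20.1% of the exon bases of Fbn1, and since no source used here gives the strand setting of the counting, reads there could have been lost or shared. In Fn1, Tnc, Thbs1 and Eln such antisense overlaps cover 2.26% to 3.42% of exon bases, and the other 5 genes have none.

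Eln (chromosome 5, 134702593 to 134747323, minus strand) encodes tropoelastin, the soluble precursor of elastin. It was at 5.17 and 6.70 CPM in the Ezh2Y646N libraries and at 14.2 and 11.6 CPM in the NrasQ61K libraries, from 90 to 242 counts. Replicates were close and the groups apart, and the log2 fold change was -1.12 (SE 0.34, adjusted p = 0.170).

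**Figure D2:**
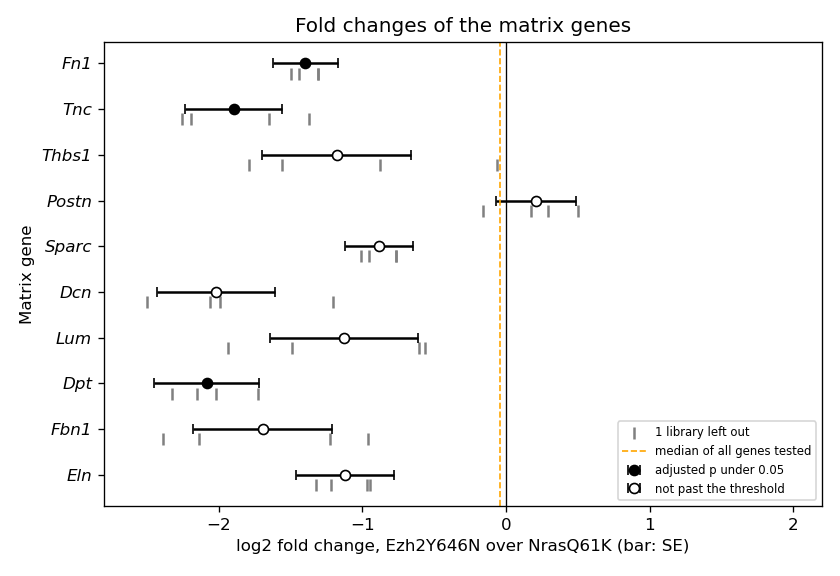
Log2 fold change of each matrix gene, Ezh2Y646N over NrasQ61K, with its SE, filled where the adjusted p was under 0.05, and grey ticks for the fits that leave out 1 library each. Fn1, Tnc and Dpt are filled, and the ticks of Thbs1 spread from -1.79 to -0.06 while those of Fn1 stay between -1.50 and -1.31.

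The NrasQ61K libraries did not rank the genes alike. Fn1, Dcn, Lum, Dpt, Fbn1 and Eln were higher in NrasQ61K replicate 1, and Tnc, Thbs1, Postn and Sparc were higher in replicate 2. The difference was small for Postn (1.05-fold), Sparc (1.11-fold), Fn1 (1.13-fold) and Eln (1.23-fold). The summed level of 14 fibroblast markers was 4476 CPM in replicate 1 and 3424 CPM in replicate 2. Basal keratinocyte markers summed to 10123 CPM in replicate 1 and 23950 CPM in replicate 2, and macrophage and dendritic cell markers to 172 and 416 CPM. The part of these cells in the differences between the NrasQ61K libraries was not tested.

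Levels of different genes were compared as CPM per kilobase of exon. In the NrasQ61K libraries Thbs1 (131 ± 97.0) and Sparc (124 ± 8.92) were highest, followed by Postn (35.1 ± 1.31), Dcn (31.2 ± 19.2), Tnc (30.2 ± 12.1) and Fn1 (25.9 ± 2.19), all as CPM per kilobase (SD, n = 2). Fbn1 (13.4 ± 7.56), Dpt (9.77 ± 3.03) and Lum (6.11 ± 2.79) came next, and Eln was lowest at 1.59 ± 0.228. Neighbours in this order overlapped in their ranges except at the steps from Sparc to Postn, from Fn1 to Fbn1 and from Lum to Eln. In the Ezh2Y646N libraries Sparc (67.3 ± 8.26) and Thbs1 (57.7 ± 18.8 CPM per kilobase) were highest, with Postn next at 31.5 and 49.8 CPM per kilobase, each overlapping its neighbour in range. They stood above Fn1 (9.84 ± 0.875), Tnc (8.11 ± 2.12) and Dcn (7.70 ± 0.295), with Fbn1, Lum, Dpt and Eln from 4.13 down to 0.733. Periostin overlapped Dcn and Tnc in range in the NrasQ61K libraries and neither of them in the Ezh2Y646N libraries.

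Of 14 fibroblast markers outside the 10 genes 2 fell, the progenitor surface protein Cd34 (log2 fold change -1.53, adjusted p = 0.0461) and the growth factor receptor Pdgfrb (-1.58, adjusted p = 0.0499), and 0 rose in edgeR, in DESeq2 or at an unadjusted p under 0.05, where 0.673% of all genes tested fell and 1.10% rose in edgeR. An unadjusted p under 0.05 with a lower level was found for 8 of the 14, against 7.02% of all genes. Both calls were lost with RLE size factors, in limma voom and without Ezh2Y646N replicate 1 or replicate 2, and that of Pdgfrb also without NrasQ61K replicate 1 and with genes for small RNA, haemoglobin and mitochondrial RNA removed. DESeq2 called 4 of the 14 lower, where it called 2.90% of all genes lower. The median log2 fold change of the 14 was -1.13, with 13 below 0. Their summed level was 1343 and 2633 CPM in the Ezh2Y646N libraries and 4476 and 3424 CPM in the NrasQ61K libraries. Dermal papilla markers, from the fibroblasts at the base of the hair follicle, had a median of -1.22 with 1 of 8, Corin, falling (0.673% of all genes), and summed to 206 to 237 against 399.7 to 644 CPM. DESeq2 called 2 of these 8 lower (2.90% of all genes), and 4 were lower at an unadjusted p under 0.05 (7.02% of all genes). In bulk libraries fewer cells of a type and less RNA per cell cannot be told apart.

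The counts of the other marker lists stand against 0.673% of all genes that fell and 1.10% that rose in edgeR, 2.90% and 3.86% in DESeq2, and 7.02% lower and 7.28% higher at an unadjusted p under 0.05. Hair shaft and inner root sheath markers fell in 4 of 10. In DESeq2 and at an unadjusted p under 0.05, 9 were lower and 1 higher. The markers summed to 766 to 959 CPM in the Ezh2Y646N libraries against 1760 to 3062 CPM. A large part of the Ezh2Y646N sums came from Gata3, at 461 and 538 against 202 and 252 CPM. It was the 1 marker of this list with a fold change above 0. Suprabasal keratinocyte markers rose in 2 of 7 in edgeR, and all 7 were higher in DESeq2 and at an unadjusted p under 0.05. They summed to 29565 to 41775 against 3409 to 8855 CPM. Of 10 macrophage and dendritic cell markers 0 passed in edgeR, 4 were lower in DESeq2, 7 had an unadjusted p under 0.05, and all had fold changes below 0. Their sums were 76.2 to 151 against 172 to 416 CPM. Of 10 endothelial markers 0 passed in edgeR, 1 was lower in DESeq2, 2 had an unadjusted p under 0.05, and all had fold changes below 0. The endothelial sums were 112 to 171 against 244 to 256 CPM. Pericyte and smooth muscle markers summed to 377 to 409 against 309 to 452 CPM, and most of each sum came from Cspg4 and Notch3. Of the 8 genes 1 fell in edgeR, Acta2, at 8.85 and 7.04 against 27.7 and 25.9 CPM. Fold changes were below 0 in 3 of the 8 and above 0 in 5. Schwann cell and glia markers rose in 1 of 8, with sums of 447 to 1025 against 264 to 434 CPM, and basal keratinocyte and melanocyte markers had 0 called in edgeR and DESeq2 and 0 at an unadjusted p under 0.05. The counts of the fibroblast, hair, suprabasal, Schwann cell and pericyte lists changed with 1 library left out, and so did the numbers of all genes called. For Schwann cells and glia the count that rose was 0 in limma voom and 4 in DESeq2. The part of any of these cells in the matrix results was not tested.

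Divided by the summed fibroblast markers of the same library, 2 of the 10 genes were lower in the Ezh2Y646N libraries without overlap, 1 was higher and 7 overlapped. Over all genes tested on this scale 1.91% were lower and 71.1% higher without overlap, and the median log2 ratio of the group means was 1.08. Postn, the higher gene, was at 20.4 and 16.5 CPM per 100 CPM of fibroblast markers in the Ezh2Y646N libraries and at 6.65 and 9.16 in the NrasQ61K libraries. Dpt was lower, at 0.282 and 0.157 against 0.459 and 0.384 CPM per 100, and so was Fbn1, at 2.31 and 2.63 against 5.07 and 2.84. Fn1, at 8.02 and 4.64 against 7.17 and 8.31, and Eln, at 0.385 and 0.254 against 0.318 and 0.339, overlapped. The median log2 ratio of the group means over the 10 genes was -0.28, with 8 below 0. Most of the summed marker level in each library came from Vim and the collagen genes Col1a1, Col1a2 and Col3a1, which are themselves matrix genes. On the scale of Col1a1, Col1a2 and Col3a1 alone, the median was -0.11, with 6 below 0 and 4 above. With the 5 markers Pdgfra, Pdgfrb, Thy1, Cd34 and Twist2 alone, which are no matrix genes, Postn was at 505 and 541 CPM per 100 in the Ezh2Y646N libraries and at 218 and 217 in the NrasQ61K libraries. On that scale Dpt and Tnc were lower and Postn higher without overlap, where 2.11% of all genes were lower and 79.4% higher, and the median of the 10 was -0.22. These ratios were not tested, and the markers are themselves few and differ between replicates.

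**Figure D3:**
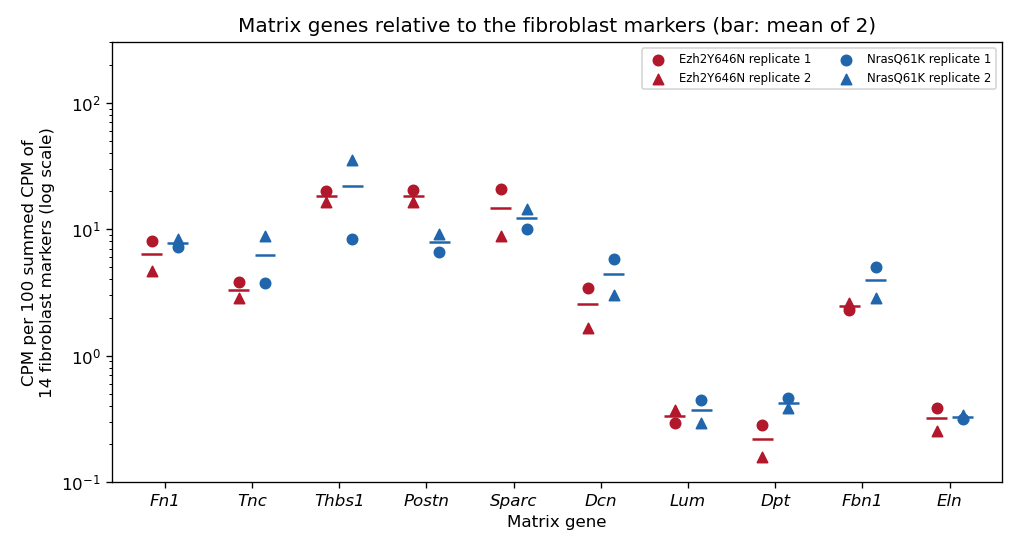
Each matrix gene as CPM per 100 summed CPM of 14 fibroblast markers in the same library, on a log axis, with symbols and colours by group and replicate and a bar at each group's mean. Postn is higher in both Ezh2Y646N libraries, Dpt and Fbn1 are lower, and the other 7 genes overlap.

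Beyond the 10 genes, 90 other genes of the matrix, its proteases and its receptors were examined as a list drawn up by function, of which 86 were tested. In this list 2 fell in edgeR's test, Fbn2 and Mmp9, and 0 rose, where 0.673% and 1.10% of all genes did. The median log2 fold change was -0.55, with 66 below 0, and an unadjusted p under 0.05 was found for 31 lower genes and 8 higher ones (7.02% and 7.28% of all genes). The groups did not overlap for 43 lower and 11 higher genes of the list (23.1% and 21.1% of all genes). DESeq2 called 19 lower and 2 higher (2.90% and 3.86% of all genes). Both edgeR calls were lost in limma voom and without Ezh2Y646N replicate 1 or replicate 2. Over the alternatives the log2 fold change ran from -2.63 to -1.77 for Fbn2 and from -3.25 to -2.43 for Mmp9. The count of the list that fell changed with 1 library left out, and so did the number of all genes called lower.

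Elastic fibre and microfibril genes had a median of -0.98 over 18 members. DESeq2 called 8 lower and 0 higher (2.90% and 3.86% of all genes). At an unadjusted p under 0.05, 9 were lower and 3 higher (7.02% and 7.28% of all genes). In edgeR's test 1 fell, where 0.673% of all genes did. This was Fbn2, which encodes the fibrillin of developing tissue, at 5.35 ± 0.727 CPM in the Ezh2Y646N libraries and 26.2 ± 11.2 CPM in the NrasQ61K libraries (SD, n = 2 each; log2 fold change -2.29, SE 0.38, adjusted p = 0.0370). The cross-linking enzyme Loxl2, at -1.48, did not pass. In the same class the microfibril protein Mfap2 was at 0.96 and the fibulin Efemp1 at 1.05, neither past the threshold. Matrix proteases and their inhibitors had a median of -1.11 over 18 members, 16 of them below 0. Of the 18, 1 fell in edgeR, 7 were lower and 0 higher in DESeq2, and 11 were lower and 0 higher at an unadjusted p under 0.05. Mmp9, a gelatinase, fell in edgeR (log2 fold change -2.77, SE 0.47, adjusted p = 0.0375). Its levels were low, at 1.84 and 1.04 CPM in the Ezh2Y646N libraries and 9.23 and 10.5 CPM in the NrasQ61K libraries. The aggrecanase Adamts4 was at -1.64 without passing (adjusted p = 0.0507).

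The counts of the remaining classes stand against 0.673% of all genes that fell and 1.10% that rose in edgeR. In DESeq2 these shares were 2.90% and 3.86%. The small leucine-rich proteoglycans other than Dcn and Lum had a median of -0.26 over 7 tested members, with 0 called in edgeR and DESeq2. At an unadjusted p under 0.05, 1 was lower and 2 were higher, where 7.02% and 7.28% of all genes were. These were Prelp at -0.84, lower, and Podn at 1.22 and Ogn at 1.46, higher. Large proteoglycans had a median of -0.37 over 5 tested members, with 0 called in edgeR. Of these, 2 were lower in DESeq2 and 2 were lower at an unadjusted p under 0.05. The class was led by versican (Vcan) at -1.76 and aggrecan (Acan) at -2.49. Matricellular and adhesive glycoproteins had a median of -0.37 over 24 tested members, with 0 called in edgeR, 2 lower and 2 higher in DESeq2, and 5 lower and 3 higher at an unadjusted p under 0.05. The calcium-binding Smoc2 was at 202 against 82.0 CPM on average (log2 fold change 1.30, adjusted p = 0.0507) and was called in limma voom, and the basement membrane linker nidogen (Nid1) was at -1.05. Receptors of matrix glycoproteins had a median of -0.25 over 14 members, with 0 called in edgeR and DESeq2. At an unadjusted p under 0.05, 3 receptors were lower and 0 higher. Among them the collagen receptor Mrc2 was at -1.20 and the fibronectin receptor chain Itga5 at -0.87.

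**Figure D4:**
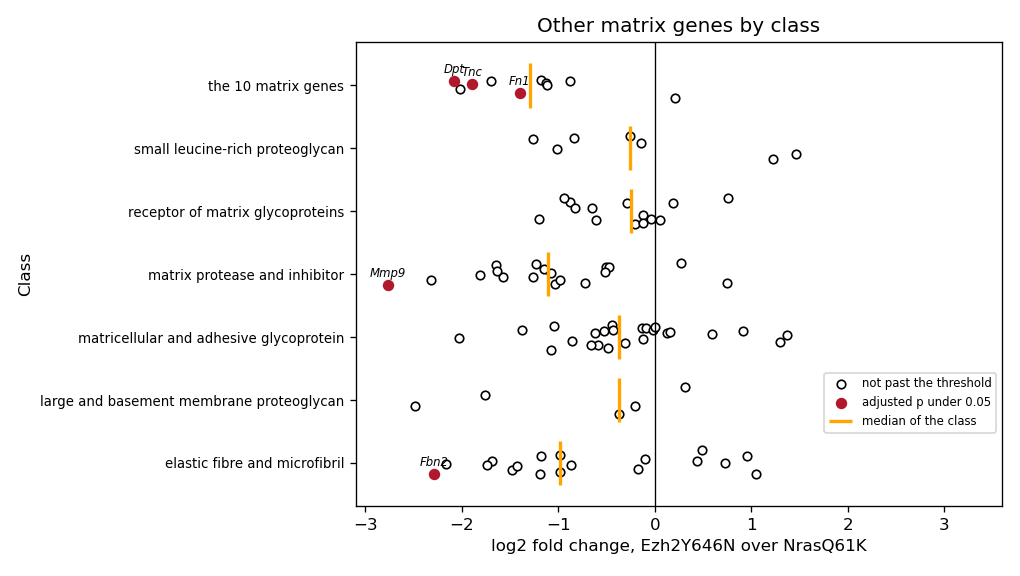
Log2 fold change, Ezh2Y646N over NrasQ61K, of the other matrix genes by class and of the 10 matrix genes, with filled red points past an adjusted p of 0.05 and an orange line at each class's median. Medians run from -1.29 for the 10 genes to -0.25 for the receptors.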

How the data were processed

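RNA was sequenced with a stranded total RNA kit for small inputs, per the labels' protocols. The authors deposited read counts per Ensembl gene, with no normalization. Per the submitters' processing notes, STAR 2.5.4b, featureCounts, Trimmomatic, bcl2fastq 2.19 and edgeR were used with GRCm38. The annotation, the strand setting and any gene filter are not given in those notes. Symbols, positions and exon lengths came from GENCODE M21 on GRCm38, in which 22291 of 22524 identifiers were found.

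Counts were tested across all genes with edgeR 4.0.16 in R 4.3.3, using filterByExpr with a minimum of 10 counts, TMM scaling, robust quasi-likelihood fits with group as the term, 2 residual degrees of freedom and Benjamini-Hochberg adjustment over 14265 genes. The biological coefficient of variation was 27.9%. The SE is the absolute log2 fold change over the square root of F. DESeq2 1.42.0, limma voom 3.58.1, other scalings and filters, a replicate block and fits without each library were alternatives.

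All 10 genes are named, as are other matrix genes past the threshold or, in classes with none, the 2 with the smallest p. Loxl2, Adamts4, Mfap2, Efemp1, Ogn, Cd34, Pdgfrb, Corin, Gata3, Acta2, Cspg4, Notch3 and Vim were chosen after seeing their values. The members and lists were chosen with earlier results of these data known.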

Additional observations from a re-analysis of the deposited data

How the results depend on the processing

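The fold changes of Fn1, Tnc, Thbs1, Sparc, Dcn, Lum, Dpt, Fbn1 and Eln were below 0 in each of the 11 alternatives, and that of Postn ran from -0.16 to 0.50. The count of the 10 genes called lower, 3, was 8 with no filter on low counts, 6 in DESeq2 and 7 with the replicate number as a block. Over all genes the number called lower rose too, from 96 to 616, 398 and 627 in these settings. With 1 library left out the count of the 10 changed, and so did the number of all genes called. None of the 10 genes was called higher in any alternative that kept all 4 libraries. Their median ran from -1.75 to -1.09 with 1 library left out. For the 90 other matrix genes, 2 lower and 0 higher became 25 and 5 with no filter, 19 and 2 in DESeq2, 0 and 1 in limma voom and 27 and 5 with the replicate block, and ran from 0 to 15 and from 0 to 6 with 1 library left out. The causes were not tested. Replicate numbers were not used as pairs, since the labels give no shared animal or day. Deviations of same-numbered libraries from their group means had a correlation of 0.14 across genes. Low counts limit Lum, Dpt and Eln, with 60 to 325 reads per library.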

Other observations

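The median profile of the 10 matrix genes, as log2 of CPM with 1 added and centred on each gene's mean, was -0.86 and -0.46 in the Ezh2Y646N libraries and 0.71 and 0.44 in the NrasQ61K libraries. Eln and Fn1 lay nearest to it, each with a root mean square difference of 0.12 over the 4 libraries, and Postn (0.72) and Thbs1 (0.71) farthest. Among 10039 other tested genes with a mean of at least 10 CPM, the 5 nearest to this profile were Dse (0.084), Lrp12 (0.095), Osgin1 (0.097), Pde7a (0.11) and Nckap5 (0.12). A likeness over 4 libraries is a description of these libraries.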
